A study of Rattus norvegicus with 36 samples.

Results

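The 138 genes described here are the expressed long intergenic noncoding RNA (lincRNA) genes of H9C2 cells, a myoblast line from embryonic rat heart. They were selected on measured values: a gene had to carry the lincRNA biotype in the deposited count tables and reach a summed raw count of at least 990 over 33 libraries. Of 24275 genes listed, 1565 were lincRNA genes and 138 of these (8.82%) passed. The 138 held 89.6% of all counts on lincRNA genes, and the other 1427 had a median summed count of 16.

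Each culture received 25 nmol/L of a mimic of miR-125b, of 1 of 4 of its isomiRs, or of a mimic control (MC), for 24 h, and then stayed for 24 h in hypoxia (under 0.2% oxygen, serum-free low-glucose medium) or in normoxia (fresh medium). Medium and oxygen changed together, so their effects cannot be told apart in any comparison of hypoxia with normoxia. The isomiRs are labelled miR-125b A, Trim 1, Trim 2 and Trim 3 and are called here by the change at the 3′ end: Plus A gains an A, and Trim A, Trim AG and Trim AGU lack the bases in their names. The 11 groups with counts per library were Hypoxia MC and, at both oxygen levels, the miR-125b mimic and its 4 isomiRs, each group with 3 libraries. Normoxia MC was not analysed here at the level of libraries, so no mimic was compared with MC in normoxia.

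A lincRNA gene is transcribed and usually spliced and polyadenylated like a protein coding gene, but lies between coding genes and carries no long reading frame. Some lincRNAs act on neighbouring genes or on chromatin, while for most no function is known, and their transcription often starts from the same region as a coding gene on the opposite strand. MiR-125b is a microRNA abundant in heart and muscle, which represses messenger RNAs that pair with its seed. An isomiR is a variant of a microRNA that gains or loses bases at an end. The mimics are shown because all comparisons turn on their 3′ ends. They share the seed (bases 2 to 8 from the 5′ end, in capitals) and differ in the last bases alone. The miR-125b sequence is rat miR-125b-5p from RefSeq (GRCr8, chr11:29732588-29732609, plus strand), and each isomiR was derived from it by its name.
miR-125b: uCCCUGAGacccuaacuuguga
Plus A: uCCCUGAGacccuaacuugugaa
Trim A: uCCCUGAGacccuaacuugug
Trim AG: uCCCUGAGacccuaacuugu
Trim AGU: uCCCUGAGacccuaacuug

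Few of the lincRNA genes have a matching RefSeq promoter, since most carry provisional clone names: 5 of 138 matched by symbol. The window from 250 bases before to 50 bases after the start (GRCr8) is shown for LOC102549726, the lincRNA gene with the most counts, which was higher in hypoxia under every mimic, and for Fendrr, the member with a known role in heart and lung development. The hypoxia-inducible factors bind DNA at a short core, and ACGTG and GCGTG (reverse complements CACGT and CACGC) were searched on both strands, with a match in capitals. The LOC102549726 window (chr20:3880958-3881257, plus strand in GRCr8, while the count tables list the gene on the minus strand of their own build) held neither motif. The Fendrr window (chr19:66061417-66061716, minus strand) held 1 ACGTG match. Of the other matched members, not shown, Fam9b held 1 GCGTG match. LOC102547954 and a window of LOC102548225 each held CACGTG, counted as 2 ACGTG matches because it reads the same on both strands. Another window of LOC102548225 held neither motif. Of 33469 rat promoter windows of this length, 19.3% held ACGTG, 29.7% GCGTG and 41.6% at least 1 of them. A match is a description of these letters, and the absence of one says only that they are not in this window.
LOC102549726: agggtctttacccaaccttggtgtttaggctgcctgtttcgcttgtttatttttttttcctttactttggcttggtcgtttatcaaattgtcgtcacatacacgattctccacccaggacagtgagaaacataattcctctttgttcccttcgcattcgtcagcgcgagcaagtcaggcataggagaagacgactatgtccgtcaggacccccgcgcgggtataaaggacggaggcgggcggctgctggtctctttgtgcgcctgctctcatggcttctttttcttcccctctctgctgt
Fendrr: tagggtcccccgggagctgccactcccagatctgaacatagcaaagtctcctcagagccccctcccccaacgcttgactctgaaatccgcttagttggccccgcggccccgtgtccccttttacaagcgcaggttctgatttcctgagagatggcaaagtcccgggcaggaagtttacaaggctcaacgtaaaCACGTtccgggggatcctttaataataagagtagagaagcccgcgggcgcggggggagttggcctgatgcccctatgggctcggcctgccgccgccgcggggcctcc

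The libraries held 28361216 to 42672584 counts, and the deepest were the 3 of Hypoxia Trim AG (39940087 to 42672584). The labels do not say whether the 3 libraries of a group came from separate cultures, so the p-values measure the spread between these libraries, which may be technical. Of the 7 myoblast markers, Myog (10.4 to 359 CPM, counts scaled to a fixed library total), Myod1, Mef2c, Acta1 and Tnnt2 were at 9.22 CPM or more in every library, Des was low (0.855 to 4.98 CPM) and Actc1 reached down to 0.0664 CPM, with a median of 0.348 CPM in normoxia. The leukocyte marker Ptprc and the epithelial markers Epcam and Cdh1 were at most 0.188, 0.261 and 0.241 CPM, while the leukocyte and macrophage marker Cd68 was 0.493 to 2.43 CPM. The hypoxia marker Bnip3 was 148 to 261 CPM in hypoxia and 33.3 to 47.5 CPM in normoxia, and Vegfa, Slc2a1, Pgk1 and Adm were also higher without overlap. Car9 (5.23 to 39.7 against 4.88 to 7.45 CPM) and Ldha (1212 to 1974 against 1029 to 1321 CPM) overlapped between oxygen levels. Egln3 was at most 0.309 CPM. Libraries of a group differed most in Hypoxia Trim AGU, Hypoxia Trim AG and Hypoxia Trim A, where the chi-square per gene between a pair reached 236, 103 and 79.7, and in Normoxia Trim AGU (37.8), against at most 18.3 in the other 7 groups. A pair of libraries went against their labels. Cav1, singled out after its values were seen, was 269, 98.0 and 98.3 CPM in Normoxia Plus A and 102, 282 and 263 CPM in Normoxia miR-125b, against 93.9 to 100.2 CPM in Hypoxia Plus A and 241 to 246 CPM in Hypoxia miR-125b. The first library labelled Normoxia Plus A thus resembled the other group in this gene, and so did the first library labelled Normoxia miR-125b. The counts of called members in comparisons that use these libraries are given with and without them, and the values of single genes include them unless stated.

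Most of the lincRNA genes were lowly expressed. Their mean level over the 11 groups had a median of 2.46 CPM and ranged from 0.965 to 136 CPM, 133 of 138 reached 1 CPM and 19 reached 10 CPM. These levels follow in part from the count threshold and are a description. The lowest members inside it were AABR07028908.2 (summed count 990), AC126572.4 (994) and AABR07033980.1 (998), and the highest lincRNA genes outside it were AABR07035780.6 (985), AABR07025387.1 (977) and AABR07067469.2 (970). The 5 highest members held 41.0% of the members' counts. Of all counts in a library, the members took 0.102% at the median.

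**Figure D1:**
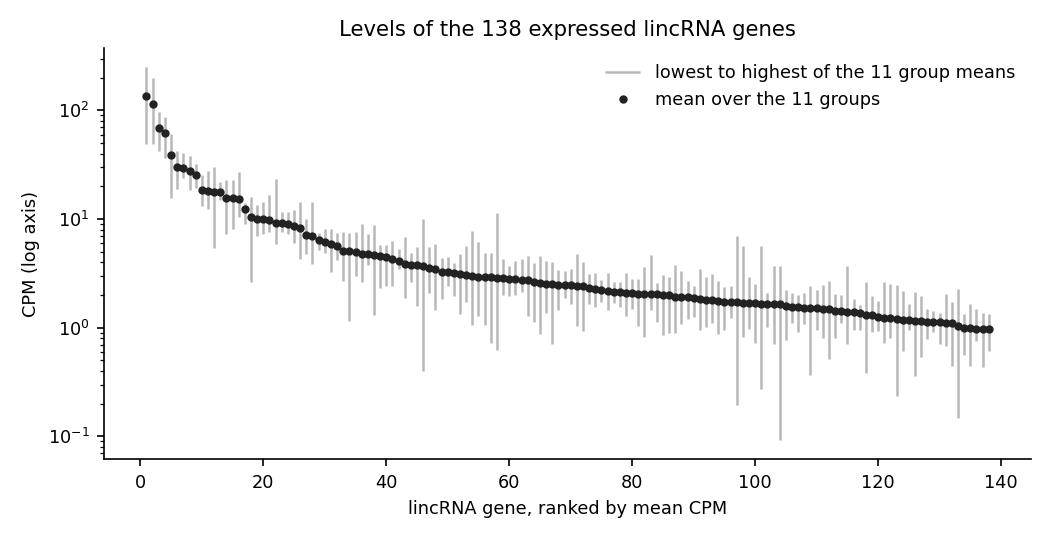
Mean level of each of the 138 lincRNA genes over the 11 groups (points, CPM on a log axis) in order of level, with a line from its lowest to its highest group mean. The levels fall from 136 to 0.965 CPM, and for some genes at low levels the group means span more than 10-fold.

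LOC102549726 was the highest of them at 136 CPM. It lies at chr20:4871264-4873982 on the minus strand in the files' coordinates, has a listed transcript length of 1522 bases, and is the member that holds a small RNA gene, the snoRNA gene SNORD48, on its own strand. It lies within the listed span of RT1-CE7, a class I histocompatibility gene on the same strand, whose group means were at most 0.41 CPM. Whether any reads are shared between them was not tested. Rn60_13_0828.1 followed at 115 CPM (chr13:77784808-77822333, plus strand), its 3′ end 7049 bases from that of Tnn, which encodes the extracellular matrix protein tenascin N. Rn60_14_0846.1 was at 69.4 CPM (chr14:83878295-83887584, minus strand) and starts 1505 bases from Morc2, which encodes a chromatin silencing ATPase. AABR07070131.1, at 61.9 CPM (chr8:53831526-53838620, plus strand), ends 478 bases from the end of Ncam1, a neural cell adhesion gene, and AABR07060519.1 was at 39.0 CPM (chr4:77413672-77446624, minus strand). The next levels were 30.4 CPM for AABR07051787.1, 29.7 CPM for Rn60_1_1359.1 near the chromatin remodeller gene Chd2, and 27.5 CPM for Rn60_X_0739.1.

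Divided by listed transcript length, the order changed. AABR07070131.1 led at 95.4 CPM per kb, followed by LOC102549726 at 89.2, and the next was Rn60_X_0739.1 at 33.6 CPM per kb. AABR07052502.1, whose nearest coding gene is the homeobox gene Dlx2, was at 31.8 CPM per kb, Rn60_13_0828.1 at 29.4, AABR07002969.1 at 21.4, AABR07060519.1 at 17.4 and AABR07033666.1, head to head with Sim2, at 17.2. Listed lengths ran from 280 to 6542 bases with a median of 1566.5, against a median of 604 for the other lincRNA genes.

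The members were spread over 21 chromosomes with 1 to 13 on each, and many sat close to a coding gene. A listed protein coding gene lay within 5 kb of 47 of 138 members (34.1%) and of 255 of 1427 other lincRNA genes (17.9%). Head to head pairs made up 18 members (13.04%, against 7.85% of the others), and 8 members (5.80%, against 1.96%) lay within 5 kb downstream of a coding gene on its strand. The head to head pairs included LOC102547954 with Lig3 at 164 bases, AC111319.2 with Ccnyl1 at 127 bases and AABR07054593.1 with the nuclear receptor coactivator gene Ncoa3 at 74 bases. The median distance was 13.6 kb for members and 35.2 kb for the others. Since the libraries were not stranded, reads of overlapping genes on opposite strands cannot be told apart, and a member just downstream of a coding gene may share its transcript. AABR07013701.1 begins 163 bases past AABR07013701.2 on the same strand.

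Members within 50 kb of each other formed 6 clusters. The largest holds 5 members at chr12:22340574-22389456 (AABR07035780.1, AABR07035780.2, AABR07035780.3, AABR07035780.5 and AABR07035782.1) and another holds AABR07019085.1, AABR07019086.1 and AABR07019088.1 at chr15:87404841-87561581. AABR07025385.1 and AABR07025386.1 lie at chr16:36258595-36297382, and their nearest coding gene is Hand2, a heart development transcription factor gene, 97442 bases from AABR07025385.1. AABR07021996.1 and AABR07021998.1 lie at chr13:101936929-102018787, and AABR07049695.2 and AABR07049695.3 at chr5:133710150-133721348 near Foxd2. AABR07050283.1 and AABR07050283.2 overlap on opposite strands at chr5:159207273-159214241, so their counts are uncertain. The lincRNA label itself is uncertain for 3 members: LOC100360790 is described in the tables as a heat shock transcription factor, LOC100909556 as similar to PILR-beta, and Fam9b is protein coding in RefSeq.

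The members differed widely in how much they varied. The coefficient of variation within groups had a median of 16.8% over members, with a range from 4.27% to 122%. It exceeded 50% in 5 members: AABR07006894.1 (57.9%), AABR07042514.3 (59.5%), AABR07013729.1 (67.4%), AABR07000382.1 (78.2%) and AC141521.2 (122%). AC141521.2 was 12.4, 1.31 and 1.54 CPM in Hypoxia MC and 1.54, 1.89 and 18.8 CPM in Hypoxia Plus A. AABR07000382.1 was 13.7, 13.2 and 0.686 CPM in Hypoxia MC and 16.9, 12.97 and 0.360 CPM in Normoxia Trim AG. For these genes single libraries stood apart within a group. Between groups, the highest mean was 2.59-fold the lowest for the median member, from 1.42-fold for AABR07035782.1 to 40.2-fold for AABR07026032.3. The span reached 4-fold in 30 members and stayed under 2-fold in 37. The highest group was most often Hypoxia MC (29 members) or Normoxia Trim AG (24), and the lowest was most often Hypoxia Trim AGU (27) or Normoxia Trim AGU (26).

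The first question was which lincRNA genes differed with oxygen when the mimic was the same. The members' share of all counts was 0.101% to 0.115% in the 18 hypoxia libraries and 0.0915% to 0.0976% in the 15 normoxia libraries, without overlap. LOC102549726, with 13.8% of the members' counts, moved in this direction. With miR-125b it went from 63.9 CPM in normoxia to 200 CPM in hypoxia, and the mean share from 0.0950% to 0.110%. With Trim AGU it went from 49.2 to 210 CPM, and the mean share from 0.0961% to 0.105%. The share without this gene was not computed, so the shares do not show that the members rose as a set. A gene is called here when edgeR's quasi-likelihood test gave a Benjamini-Hochberg adjusted p below 0.05 over all genes tested and the fold change was at least 1.5. Under miR-125b, 19 members were called higher in hypoxia and 22 lower, of 138 tested (13.8% and 15.9%, where 9.34% and 11.5% of all genes tested were called). Under Plus A, 16 were higher and 25 lower (all genes 10.0% and 12.8%), and under Trim A 26 were higher and 29 lower (all genes 12.0% and 14.5%). Under Trim AG, 27 were higher and 25 lower (all genes 15.0% and 17.8%), and under Trim AGU 22 were higher and 15 lower (all genes 13.6% and 13.4%). At adjusted p below 0.05 without the fold limit, members passed less often than all genes under each mimic. These shares were 42.8% of members and 50.8% of all genes under miR-125b, and 46.4% and 47.6% under Trim A, where they were closest. The median log2 fold change of members lay between -0.08 and 0.10 in the 5 comparisons, and that of all genes between 0.00 and 0.02. Without the first normoxia library the totals were 46 under miR-125b and 40 under Plus A, in place of 41 in each, with 39 and 35 of the 41 still called. The total of 37 under Trim AGU depended on single libraries: it was 19 to 23 without any 1 of the Normoxia Trim AGU libraries or without the third Hypoxia Trim AGU library, and 51 without the second.

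These 5 comparisons share no library. A member was called in at least 1 of them in 80 cases and in none in 58, and 1 member, AABR07020987.1, was called higher in 1 and lower in another. In each comparison alone, 26.8% to 39.9% of members and 20.9% to 32.8% of all genes tested were called in either direction. The share of all genes called in at least 1 was not computed, so the 80 cannot be set against all genes. In all 5, 8 members were called higher and 6 lower (5.80% and 4.35% of members, where 3.23% and 6.63% of the 14353 genes tested in all 5 were called so). For 11 of these 14, the 15 hypoxia libraries with these mimics and the 15 normoxia libraries did not overlap. These 14 were chosen because they were called in every comparison, so the lack of overlap follows in part from that choice. The share of all genes without such overlap was not computed, and the 11 are a description.

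**Figure D2:**
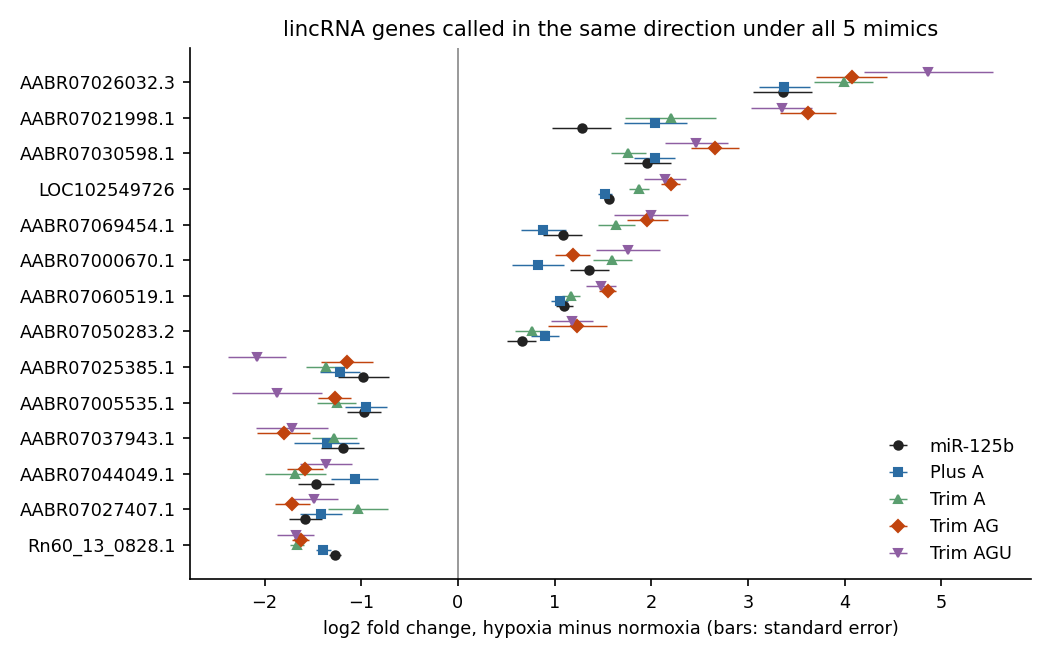
Log2 fold change, hypoxia minus normoxia, of the 14 lincRNA genes called in the same direction under all 5 mimics, with 1 point per mimic and bars of 1 standard error from edgeR. The 8 genes at the top were higher in hypoxia, AABR07026032.3 by 3.36 to 4.86, and the 6 at the bottom were lower.

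LOC102549726 rose in hypoxia under every mimic. In normoxia it was 66.0, 62.6 and 63.0 CPM with miR-125b, 66.9, 61.1 and 60.6 CPM with Plus A, 57.4, 59.4 and 62.5 CPM with Trim A, 57.6, 52.4 and 55.5 CPM with Trim AG and 60.0, 36.3 and 51.3 CPM with Trim AGU. In hypoxia it was 202, 194 and 203 CPM with miR-125b, 175, 204 and 203 CPM with Plus A, 202, 256 and 232 CPM with Trim A, 230, 275 and 251 CPM with Trim AG and 197, 227 and 206 CPM with Trim AGU. All hypoxia libraries were thus above all normoxia libraries. The log2 fold change ran from 1.52 (SE 0.0726, adjusted p = 4.68e-07) with Plus A to 2.20 (SE 0.099, adjusted p = 8.93e-07) with Trim AG by edgeR's quasi-likelihood test.

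Rn60_13_0828.1 fell under every mimic. It was 139, 160 and 160 CPM in Normoxia miR-125b and 65.2, 67.5 and 69.2 CPM in Hypoxia miR-125b. Over the 5 mimics it lay between 124.8 and 236 CPM in normoxia and between 44.1 and 72.4 CPM in hypoxia. The groups did not overlap, and the log2 fold change ran from -1.27 with miR-125b (SE 0.0605, adjusted p = 5e-07) to -1.68 with Trim AGU (SE 0.191, adjusted p = 0.00106) by edgeR's quasi-likelihood test. In Hypoxia MC, by contrast, it was 133, 143 and 147 CPM, within the range of the normoxia libraries.

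**Figure D3:**
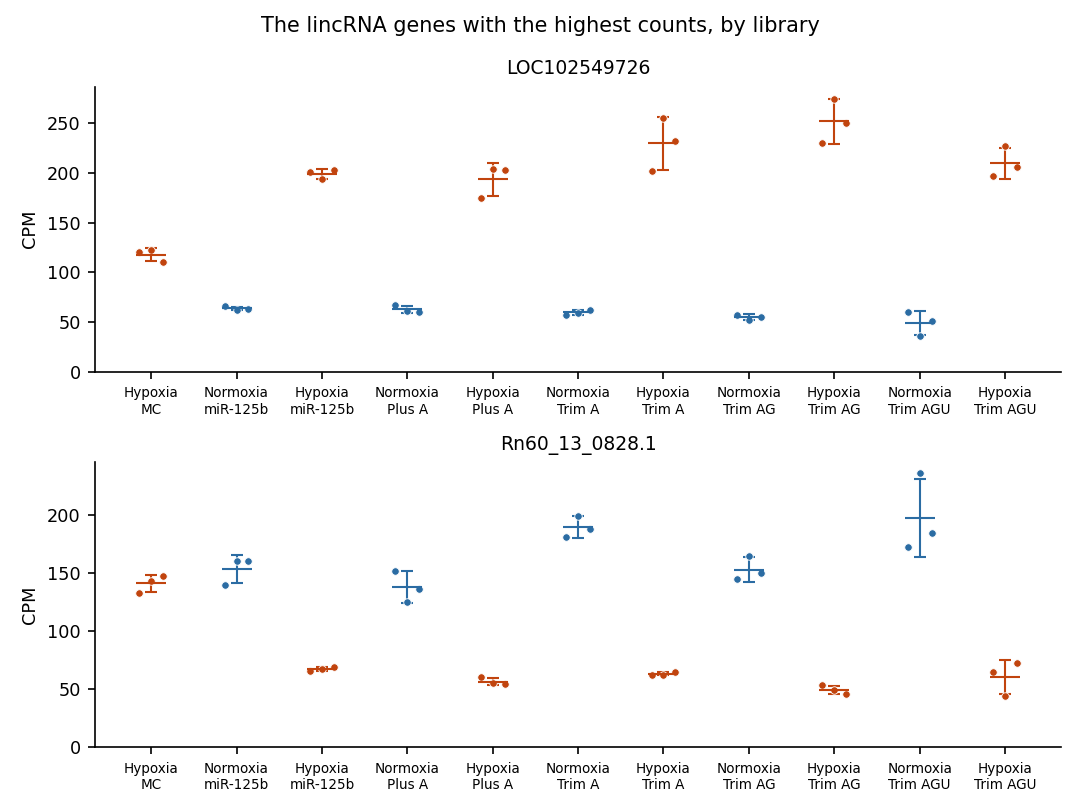
CPM of LOC102549726 and Rn60_13_0828.1 in each of the 33 libraries (points; hypoxia orange, normoxia blue), with the mean and SD of each group. LOC102549726 is higher in every hypoxia group than in every normoxia group, and Rn60_13_0828.1 is at 44.1 to 72.4 CPM in hypoxia with a mimic of miR-125b or an isomiR and at 124.8 CPM or more elsewhere.

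AABR07026032.3 (chr16:59997072-60007556) showed the largest relative difference and was near the detection limit in normoxia. It was 2.44, 2.81 and 3.87 CPM in Hypoxia miR-125b and 0.240, 0.209 and 0.382 CPM in Normoxia miR-125b, and with Trim AGU 3.66, 1.82 and 2.70 CPM in hypoxia and 0.139, 0.138 and 0 CPM in normoxia. Its log2 fold change was 3.36 with miR-125b (SE 0.306, adjusted p = 2.02e-05, edgeR) and 4.86 with Trim AGU (SE 0.666, adjusted p = 0.00239). Hypoxia MC, at 1.09, 1.21 and 0.824 CPM, lay between these levels. Its nearest coding gene is Cldn23, a tight junction gene, 6746 bases away.

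AABR07030598.1 (chr10:95240517-95242746) lies 240 bases upstream of RGD1565033 on the same strand. It was 4.64, 4.39 and 4.55 CPM in Hypoxia miR-125b and 0.822, 1.57 and 0.904 CPM in Normoxia miR-125b (log2 1.96, SE 0.241, adjusted p = 0.000134, edgeR). The difference was 1.76 to 2.66 over the mimics. Hypoxia MC, at 4.83, 4.03 and 5.90 CPM, was at the level of the other hypoxia groups. RGD1565033 moved with it: its group means were 22.0 to 26.7 CPM in hypoxia and 6.25 to 7.94 CPM in normoxia. Whether reads of the lincRNA gene belong to transcripts of that gene was not tested.

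AABR07060519.1 was 43.7 to 63.4 CPM in hypoxia with the 5 mimics and 14.6 to 29.9 CPM in normoxia, without overlap, and its log2 fold change was 1.05 to 1.55. AABR07069454.1 (2.96 to 4.73 against 0.621 to 2.43 CPM, log2 0.88 to 2.00) and AABR07000670.1 (3.11 to 5.80 against 1.03 to 2.17 CPM, log2 0.83 to 1.76) were also higher without overlap. AABR07050283.2 was called in all 5 at 0.66 to 1.24, but its libraries overlapped (4.83 to 7.90 against 1.37 to 5.42 CPM). AABR07021998.1 was 1.16 to 3.73 CPM in hypoxia and 0.134 to 0.766 CPM in normoxia. Its log2 fold change was lowest with miR-125b, at 1.28.

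Of the lincRNA genes lower in hypoxia, AABR07027407.1 was 1.04 to 2.45 against 2.52 to 5.20 CPM, AABR07044049.1 0.823 to 2.33 against 3.12 to 5.89 CPM, and AABR07025385.1, 97442 bases from Hand2, 0.676 to 1.90 against 1.98 to 4.78 CPM. In these the libraries did not overlap, with medians over the mimics of -1.48, -1.47 and -1.22 on the log2 scale. AABR07037943.1 (0.533 to 1.66 against 1.58 to 4.03 CPM) and AABR07005535.1 (0.345 to 3.61 against 2.85 to 8.74 CPM) overlapped over all libraries, with medians of -1.36 and -1.25. Leaving out 1 library ended some of these calls: AABR07005535.1, AABR07037943.1 and AABR07044049.1 with Trim AGU, AABR07027407.1 with Trim A, and, of the higher genes, AABR07000670.1 with Plus A (lowest log2 0.56) and AABR07050283.2 with miR-125b (lowest log2 0.54).

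The second question was which lincRNA genes differed between a mimic and MC in hypoxia. With miR-125b, 25 members were called higher and 24 lower than with MC (18.1% and 17.4%, where 9.43% and 12.5% of all genes tested were called). With Plus A 20 were higher and 27 lower (all genes 10.5% and 14.4%), and with Trim A 24 and 26 (all genes 12.4% and 15.7%). With Trim AG 24 were higher and 25 lower (all genes 17.0% and 20.2%), and with Trim AGU 15 and 18 (all genes 11.4% and 12.4%). Without the fold limit, at adjusted p below 0.05 alone, members passed less often than all genes with each mimic. With miR-125b these shares were 45.7% of members and 59.5% of all genes. The total of 33 for Trim AGU fell to between 14 and 17 without any 1 of the MC libraries. The median log2 fold change of members was -0.04 with miR-125b (all genes 0.00) and lowest with Trim AGU, at -0.18 (all genes -0.02). The 5 comparisons share the MC libraries, so their values are given side by side.

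In these comparisons some of the myogenic markers differed strongly. Myog, a master gene of muscle differentiation, was 354, 359 and 342 CPM in Hypoxia MC and 63.1 to 64.7 CPM in Hypoxia miR-125b, with 10.4 to 62.2 CPM in the isomiR groups. Tnnt2, cardiac troponin T, was 295 to 316 CPM with MC and 14.8 to 54.3 CPM with the mimics, and Actc1, cardiac actin, 31.5 to 35.0 and 0.145 to 1.84 CPM. The other markers differed less or not with every mimic. Acta1 was 160 to 173 CPM in Hypoxia MC, 17.4 to 19.7 CPM in Hypoxia miR-125b and 140 to 181 CPM in Hypoxia Trim AG. Des was 1.65 to 1.98 CPM with MC and 1.42 to 1.87 CPM with miR-125b. Myod1 was 61.5 to 66.4 and 41.3 to 42.3 CPM in these groups, and Mef2c 47.3 to 51.3 and 25.5 to 28.4 CPM. The part of these marker differences between Hypoxia MC and the other groups in the lincRNA results was not tested.

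The higher lincRNA genes with miR-125b were led by AABR07004232.2 (chr1:131688104-131690120), at 1.17, 2.36 and 1.90 CPM against 0.331, 0.336 and 0.446 CPM with MC (log2 2.31, SE 0.325, adjusted p = 9.93e-05, edgeR). It was also called higher with each isomiR, by 1.85 to 2.64. AABR07047212.2 was 1.17, 1.68 and 2.10 CPM against 0.231, 0.537 and 0.378 CPM (log2 2.14, SE 0.348, adjusted p = 0.0003). AABR07026032.3 (1.58), AABR07011084.2 (1.47) and AABR07019088.1 (1.42) followed. These 5 were chosen for size among called genes that averaged 1 CPM or more over the 6 libraries and did not overlap between groups. Rn60_X_0713.4, at 2.05 (adjusted p = 0.000385), changed more than the last 3 of them but averaged 0.912 CPM. All were low, at 1.65 to 3.04 CPM on average with miR-125b, as were most genes of this kind.

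Among abundant lincRNA genes, LOC102549726 was 200 ± 5.02 CPM with miR-125b and 118 ± 6.74 CPM with MC (SD, n = 3), a log2 fold change of 0.80 (SE 0.0447, adjusted p = 8.23e-08, edgeR). Rn60_14_0846.1 was 88.7, 84.1 and 82.4 CPM with miR-125b and 50.5, 47.5 and 46.6 CPM with MC, a log2 fold change of 0.86 (SE 0.0459, adjusted p = 5.91e-08). Both were called higher with Plus A, Trim A and Trim AGU too. With Trim AG LOC102549726 was called higher (log2 1.16), while Rn60_14_0846.1 was 46.9, 50.02 and 47.4 CPM there, the level of MC.

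The lower genes with miR-125b were led by AABR07013729.1 (log2 -2.27, SE 0.541, adjusted p = 0.00384), which is 1 of the 5 members of high variation. AABR07000382.1, another of these, was at -3.12 (adjusted p = 0.00555), with libraries that overlapped. AABR07021998.1 was 1.41, 1.81 and 1.16 CPM against 7.83, 6.48 and 6.80 CPM (log2 -2.23, SE 0.185, adjusted p = 1.65e-06), and AABR07027407.1 1.31, 1.16 and 1.45 CPM against 5.98, 5.68 and 6.66 CPM (log2 -2.18, SE 0.162, adjusted p = 6.69e-07). Both were called lower with every isomiR as well, by 1.06 to 2.21 and by 1.81 to 2.21 on the log2 scale. LOC100909556 (-1.98) and AABR07068308.1 (-1.58) followed. Rn60_13_0828.1 was 65.2 to 69.2 CPM against 133 to 147 CPM (log2 -1.03, SE 0.0427, adjusted p = 8.4e-09) and was called lower with each isomiR, at -1.09 to -1.45. AABR07030366.1, head to head with the collagen gene Col1a1 at 2497 bases, was 11.2, 10.9 and 11.6 CPM against 22.1, 23.1 and 24.3 CPM (log2 -1.01, SE 0.0664, adjusted p = 2.78e-07), while Col1a1 was higher with miR-125b by 0.76.

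The third question was whether an isomiR, differing from miR-125b at the 3′ end alone, gave other levels. The isomiRs that add or lack 1 base, Plus A and Trim A, differed in few lincRNA genes when all libraries were used. In hypoxia 4 members were called with Plus A (2.90% of members, 2.03% of all genes) and 1 with Trim A (0.725%, 0.873% of all genes), or 9 without the first Hypoxia Trim A library. These 5 genes are named with their values known. With Plus A they were AABR07033666.1 (log2 -0.62, adjusted p = 0.0177), Rn60_X_0713.4 (0.74, adjusted p = 0.0264) and the highly variable AABR07013729.1 (1.91, adjusted p = 0.0442) and AABR07000382.1 (2.72, adjusted p = 0.0145), by edgeR's quasi-likelihood test. In that order they were called in 3, 2, 2 and 4 of the 6 fits that leave out a library, DESeq2 did not call AABR07013729.1 (adjusted p = 0.0709), and the fit of all libraries called AABR07033666.1 alone. With Trim A it was AABR07030366.1, at 7.79, 6.78 and 5.88 CPM against 11.2, 10.9 and 11.6 CPM (log2 -0.72, SE 0.13, adjusted p = 0.0385), which was called in 1 of the 6 fits that leave out a library.

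In normoxia no member was called with either. With Plus A edgeR called 0 of 137 members (0.0% of all genes), 6 had an unadjusted p below 0.05, and DESeq2 called 0. Without the first libraries of both groups, AABR07013729.1 (log2 2.76, adjusted p = 0.00728), AABR07006894.1 (1.47, adjusted p = 0.0249) and AABR07013701.1 (0.67, adjusted p = 0.00486, edgeR) were called higher. With Trim A edgeR called 0 (0.414% of all genes), 17 had an unadjusted p below 0.05 and DESeq2 called 2. These counts do not show that the mimics act alike. The median size of the log2 difference from miR-125b was 0.23 with Plus A and 0.21 with Trim A in hypoxia. In normoxia it was 0.14 and 0.16. Spread between libraries alone also gives such differences some size, so these medians cannot decide whether the mimics act alike.

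Trim AG, which lacks 2 bases, differed in many more. In hypoxia 14 members were called higher and 16 lower than with miR-125b (10.1% and 11.6% of members, 7.85% and 11.5% of all genes), and in normoxia 9 higher and 13 lower (6.57% and 9.49%, 7.58% and 6.36% of all genes). By adjusted p below 0.05 alone, 29.7% of members and 41.4% of all genes passed in hypoxia, and 19.7% and 38.5% in normoxia. The hypoxia Trim AG libraries were also the deepest, and the part of depth was not tested. Without the first Normoxia miR-125b library the normoxia total was again 22, of which 17 were among the first 22, and the hypoxia total was 19 without the third Trim AG library. Called at both oxygen levels were 7 members, or 23.3% of the 30 and 31.8% of the 22, and 6 of them had the same direction: AABR07005535.1, AABR07015015.1, AABR07019088.1, AABR07063581.1, AABR07066820.1 and Rn60_14_0846.1. These 6 are 4.38% of the 137 members tested at both levels, where 6.69% of the 14611 genes so tested were called in the same direction. Without the first Normoxia miR-125b library, AABR07019088.1 (adjusted p = 0.132, edgeR) and AABR07063581.1 (adjusted p = 0.10) were not called in normoxia. AABR07021998.1 was called in opposite directions.

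Rn60_14_0846.1 fell below its miR-125b level with Trim AG at both oxygen levels. It was 46.9, 50.02 and 47.4 CPM against 88.7, 84.1 and 82.4 CPM in hypoxia (log2 -0.80, SE 0.0712, adjusted p = 0.000109, edgeR) and 43.02, 44.3 and 40.04 CPM against 75.8, 76.4 and 77.6 CPM in normoxia (log2 -0.90, SE 0.0566, adjusted p = 1.24e-05). Its head to head neighbour Morc2 was at 0.30 and 0.24 on the log2 scale in these comparisons.

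AABR07015015.1 (chr14:45395343-45396315) was 1.16, 0.551 and 1.4998 CPM with Trim AG and 4.47, 4.84 and 4.62 CPM with miR-125b in hypoxia (log2 -2.09, SE 0.304, adjusted p = 0.0011, edgeR). In normoxia it was 0.591, 0.767 and 0.753 CPM against 1.58, 1.15 and 1.95 CPM (log2 -1.19, SE 0.271, adjusted p = 0.00747). In Hypoxia MC, at 12.1, 10.4 and 11.8 CPM, it was higher than in any other group. AABR07005535.1, head to head with the junction gene Plekha7 at 348 bases, went the other way: 3.61, 2.63 and 3.28 CPM against 1.55, 1.74 and 1.71 CPM in hypoxia (log2 0.94, SE 0.181, adjusted p = 0.00419) and 6.81, 7.56 and 8.74 CPM against 3.53, 2.89 and 2.85 CPM in normoxia (log2 1.27, SE 0.159, adjusted p = 0.000294).

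In hypoxia the 14 higher genes with Trim AG also included AABR07024856.1 (log2 1.43), 129 bases upstream of the tropomyosin gene Tpm4, AABR07072389.1 (1.42) and AABR07013701.1 (1.17, at 17.6, 25.9 and 19.9 CPM against 11, 8.36 and 9.20 CPM). AABR07013410.3 (0.90, adjusted p = 0.0286, edgeR) was called in 2 of 6 fits that leave out a library. Of the 16 lower genes, those of largest change at a mean of 1 CPM or more, besides AABR07015015.1, were AABR07011996.1 (-1.61), AABR07019088.1 (-1.23), AABR07020987.1 (-1.18) and AABR07045680.1 (-1.16), the last of which starts 1024 bases from Cd99. AABR07070131.1, among the abundant genes, was 44.4, 29.1 and 35.9 CPM against 67.6, 63.0 and 68.4 CPM (log2 -0.85, SE 0.131, adjusted p = 0.0015).

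In normoxia, of the 9 higher genes with Trim AG, those of largest change besides AABR07005535.1 were AABR07002910.1 (log2 1.31), which ends 462 bases from Arhgap33, AABR07021910.1 (1.30, called in 3 of 6 fits that leave out a library and not without the first Normoxia miR-125b library), AABR07043829.2 (0.97) and AABR07047212.2 (0.81, called in 2 of 6 such fits). AABR07043829.2 was 27.5, 24.5 and 29.8 CPM against 12.6, 13.5 and 14.2 CPM (SE 0.0926, adjusted p = 6.76e-05, edgeR). The groups were thus far apart, and in Normoxia Trim AGU, at 25.0, 23.2 and 21.9 CPM, the gene was called higher too (log2 0.79, adjusted p = 0.000688). Of the 13 lower genes, those of largest change at a mean of 1 CPM or more, besides AABR07015015.1, were AABR07004232.2 (-1.45), AABR07050283.1 (-1.26), AABR07060862.1 (-1.18) and AABR07066820.1 (-1.12). Larger changes were those of Rn60_X_0713.4 (-1.72, adjusted p = 0.000845, edgeR) and AABR07021998.1 (-1.57, adjusted p = 0.0183), at means of 0.861 and 0.379 CPM over these libraries.

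Trim AGU, which lacks 3 bases, gave 1 called member in hypoxia (0.725% of members, 3.75% of all genes, and 13 members without the second Hypoxia Trim AGU library) and 21 in normoxia, 6 higher and 15 lower (4.38% and 10.9%, where 6.22% and 5.16% of all genes were called). Without the first Normoxia miR-125b library the latter total was 17, of which 15 were among the 21. In normoxia 16.8% of members and 25.0% of all genes passed adjusted p below 0.05 alone. The Hypoxia Trim AGU libraries varied more: Rn60_14_0846.1 was 83.1, 54.7 and 80.2 CPM in that group. A single gene, AABR07002969.1, was called at both oxygen levels, or 0.73% of the 137 members tested at both, and 2.18% of the 14426 genes tested at both were called in the same direction. It was named after its values were seen.

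AABR07002969.1 (chr1:90820595-90848674, plus strand, 492 bases of listed transcript, 70402 bases from Capns1) was lower with the loss of 2 and of 3 bases. It was 13.2, 12.9 and 13.7 CPM in Hypoxia miR-125b and 12.7, 12.98 and 11.5 CPM in Normoxia miR-125b. With Trim AG it was 8.30, 9.86 and 8.86 CPM in hypoxia and 9.24, 8.68 and 8.12 CPM in normoxia, and with Trim AGU 2.85, 1.95 and 3.08 CPM and 2.81, 2.97 and 2.58 CPM. At each oxygen level all libraries of Trim AGU lay below all of Trim AG, and these below all of miR-125b. With Plus A it was 10.9, 13.4 and 12.7 CPM in hypoxia and 13.95, 13.6 and 10.7 CPM in normoxia, overlapping with miR-125b. Trim A, at 11.1, 11.5 and 12.1 CPM, overlapped with it in normoxia and, at 13.8, 13.8 and 15.1 CPM, lay just above it in hypoxia, where Hypoxia MC was at 17.7, 15.0 and 15.2 CPM.

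The log2 difference of AABR07002969.1 from miR-125b with Trim AGU was -2.25 in hypoxia (SE 0.184, adjusted p = 0.00318, edgeR) and -2.16 in normoxia (SE 0.14, adjusted p = 0.000103). With Trim AG it was -0.54 (SE 0.109, adjusted p = 0.00526) and -0.56 (SE 0.106, adjusted p = 0.0029), under the 1.5-fold limit and so not called. The intervals of 2 SE on either side were -0.31 to 0.07 and -0.20 to 0.28 for Plus A and -0.07 to 0.29 and -0.29 to 0.11 for Trim A, in hypoxia and normoxia. The interaction with oxygen was -0.06 for Trim AGU (-0.47 to 0.36) and 0.01 for Trim AG (-0.29 to 0.31), so no difference between oxygen levels was seen within these bounds. Capns1 itself was 1.62 to 2.72 CPM as a group mean.

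**Figure D4:**
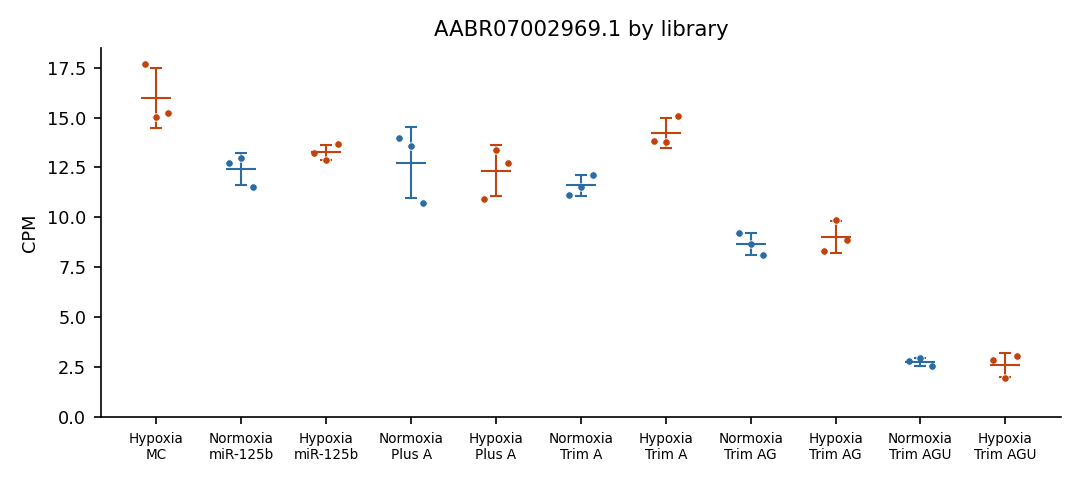
CPM of AABR07002969.1 in each of the 33 libraries (points; hypoxia orange, normoxia blue), with the mean and SD of each group. The gene is at 10.7 to 17.7 CPM with MC, Trim A, miR-125b and Plus A, at 8.12 to 9.86 CPM with Trim AG and at 1.95 to 3.08 CPM with Trim AGU at both oxygen levels.

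The other genes of largest change with Trim AGU in normoxia were Rn60_X_0713.4 (0.312, 0.138 and 0.264 CPM against 1.34, 1.25 and 1.36 CPM, log2 -2.45, SE 0.347, adjusted p = 0.00123, edgeR), AABR07011084.2 (-2.27), and, higher, the variable AABR07006894.1 (2.03, adjusted p = 0.0205, and 0.0775 without the first Normoxia miR-125b library) and AABR07002910.1 (1.26). They were chosen after their values were seen. AABR07011084.2 was 0.0349 to 1.27 CPM over all normoxia libraries, near the detection limit at its lowest. Rn60_X_0713.4 was 1.09, 1.41 and 1.09 CPM with Trim AGU in hypoxia, against 1.62, 1.48 and 1.29 CPM with miR-125b.

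The fourth question was whether the difference between an isomiR and miR-125b itself differed between hypoxia and normoxia. The interaction was called in 20 members for Trim AG (14.5% of members, 11.3% of all genes, and by adjusted p below 0.05 alone 17.4% and 22.7%). Of these 20, 11 had a higher and 9 a lower difference in hypoxia. The higher ones included AABR07021998.1, Rn60_X_0713.4, AABR07050283.1 (1.44), AABR07072389.1 (1.12) and AABR07054593.1 (0.82), which starts 74 bases from Ncoa3, and the lower ones AABR07020987.1 (-1.64), AABR07011996.1 (-1.39), AABR07033980.1 (-1.31) and AABR07002910.1 (-0.97). It was called in 2 for Trim AGU (1.45%, 0.966% of all genes), which were Rn60_X_0713.4 and AABR07021998.1, named after their values were seen. edgeR called 0 members for Plus A (0.0193% of all genes), where 11 had an unadjusted p below 0.05 and DESeq2 called 1. For Trim A it called 0 (0.605% of all genes), where 20 had an unadjusted p below 0.05 and DESeq2 called 5, and 15 were called without the first Hypoxia Trim A library. Without the first Normoxia miR-125b library the interaction was called in 15 members for Trim AG and 0 for Trim AGU, and the former was 12 without the second Normoxia Trim AG library. The latter was 13 without the first Hypoxia Trim AGU library.

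AABR07030366.1, next to Col1a1, was 6.85, 5.26 and 5.48 CPM with Trim AG and 11.2, 10.9 and 11.6 CPM with miR-125b in hypoxia, and 9.07, 8.19 and 7.53 CPM against 6.92, 7.76 and 7.78 CPM in normoxia. The interaction was -1.03 (SE 0.174, adjusted p = 0.00164, edgeR). AABR07054460.4 was 13.2, 15.9 and 13.9 CPM against 8.63, 8.32 and 10.3 CPM in hypoxia, and 6.08, 6.13 and 6.29 CPM against 7.19, 7.203 and 7.51 CPM in normoxia, without overlap in either. LOC102549726 was higher with Trim AG in hypoxia (252 against 200 CPM on average) and lower in normoxia (55.2 against 63.9 CPM), an interaction of 0.60 (SE 0.108, adjusted p = 0.00218) that fell under 1.5-fold, at 0.58, without the first Normoxia miR-125b library. Of the 20 called, AABR07021998.1 had the largest interaction with Trim AG, at 2.30 (SE 0.427, adjusted p = 0.00268), with 2.13, 2.25 and 2.84 CPM against 1.41, 1.81 and 1.16 CPM in hypoxia and 0.243, 0.139 and 0.196 CPM against 0.445, 0.766 and 0.487 CPM in normoxia.

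**Figure D5:**
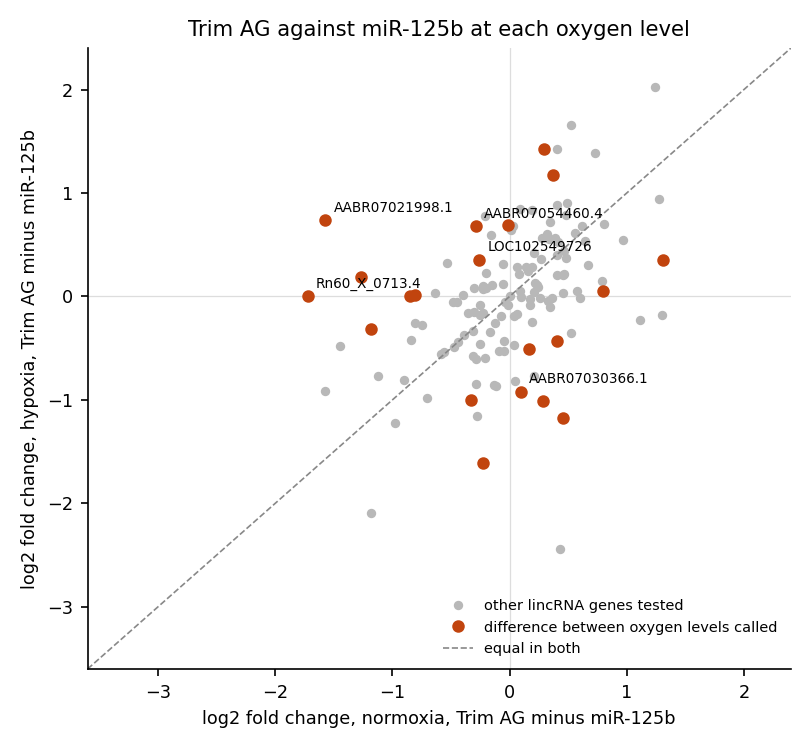
Log2 fold change of Trim AG against miR-125b in normoxia (horizontal) and hypoxia (vertical) for the 137 lincRNA genes tested in both, with the 20 genes whose interaction with oxygen was called in orange and a dashed line of equal change. AABR07021998.1 lies at 0.74 in hypoxia and -1.57 in normoxia, and AABR07030366.1 at -0.92 and 0.10.

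The members were then set beside their nearest coding genes. Correlations across pairs are a description: pairs are not replicates, and both genes of a pair share the libraries. For miR-125b against MC in hypoxia, Pearson's r was 0.20 over 42 pairs within 5 kb and 0.34 over 67 farther pairs. For hypoxia against normoxia with miR-125b it was 0.55 over 42 and 0.10 over 64 pairs, and with Trim AG 0.19 over 42 and 0.22 over 66. For Trim AG against miR-125b it was 0.49 over 43 and 0.12 over 65 pairs in hypoxia and 0.29 over 41 and 0.28 over 63 in normoxia. Near pairs were thus not always closer in their changes than far ones.

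Single pairs went both ways. Tnn fell by 1.97 on the log2 scale in hypoxia with Trim AG, where Rn60_13_0828.1 fell by 1.62, and RGD1565033 rose by 1.82, where AABR07030598.1 rose by 2.66. P2ry4, a nucleotide receptor gene 3906 bases upstream of Rn60_X_0713.4 on its strand, was higher by 2.24 with miR-125b than with MC in hypoxia, and the lincRNA gene by 2.05. Both were also lower with Trim AG than their level with miR-125b in normoxia, by 1.06 and 1.72. Plekha7 was higher by 1.09 in hypoxia with Trim AG, where AABR07005535.1 was lower by 1.27. With Trim AG against miR-125b in normoxia, Arhgap33 was at 1.22 and AABR07002910.1 at 1.31.

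Of a list of well known long noncoding RNA genes, Fendrr was the one among the members. Miat, with 4 counts in all, and Snhg11, listed as protein coding with 18 counts, were the others in the tables under these names. Fendrr (chr19:52995529-53010509, minus strand, 749 bases) starts 1823 bases from Foxf1, a mesoderm transcription factor gene, and its mean level was 3.22 CPM. It was 1.67, 1.79 and 2.39 CPM in Hypoxia Plus A, below Hypoxia MC (3.90, 2.65 and 3.64 CPM, log2 -0.78, adjusted p = 0.0121, edgeR) and Normoxia Plus A (3.94, 2.68 and 2.99 CPM, log2 -0.82, adjusted p = 0.013). The libraries did not overlap in either comparison. These were its only calls in the 18 comparisons of pairs of groups, and with Trim AG against miR-125b in hypoxia it was 4.36, 3.76 and 3.82 against 2.30, 3.00 and 2.84 CPM, with a log2 difference of 0.57 that was under 1.5-fold.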

How the data were processed

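Polyadenylated RNA from H9C2 cells was sequenced from libraries that were not stranded. The authors aligned the reads and counted them per gene (the submitters' processing notes name HISAT2 and StringTie, without versions), and the deposited values used here were raw counts per gene and library, with gene length and position columns in the other fields. The genome build of these tables is not given in the sources used here. Of 12 tables, 11 gave counts for 33 of the 36 libraries; the table for Normoxia MC held the authors' means and was not used here, nor were the authors' FPKM, normalized values, fold changes and p-values.

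Counts were scaled by TMM and tested with edgeR 4.0.16 in R 4.3.3 (quasi-likelihood test, filterByExpr) over all genes, in 18 comparisons of pairs of groups and 4 interactions. A call needed a Benjamini-Hochberg adjusted p below 0.05 over all genes tested and a fold change of at least 1.5. Each comparison was fitted on its own groups, and 137 or 138 members passed the filter on low counts. CPM are counts divided by the library total. DESeq2 1.42.0, other size factors, no filter, a fit of all libraries, a block for the replicate number and leaving out each library were tried as alternatives. The script was tested on simulated data. Figures were drawn with matplotlib 3.10.9.

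The neighbour of a member is the nearest protein coding gene by the gap between gene bodies. Members of 1 comparison were named by rule (the 8 highest in CPM and in CPM per kb, known long noncoding RNA genes, the 5 largest called changes per direction of at least 1 CPM without overlap, and genes called under all 5 mimics), and exceptions are marked. Members and lists were chosen with earlier results of these data known. Promoters came from RefSeq (GRCr8), where 5 of 138 members matched. The deviations of same-numbered libraries from their group means were taken on log2 CPM with a prior count of 2. Their correlations ran from -0.161, in Normoxia Plus A against Normoxia miR-125b, to 0.076, so the replicate numbers were not used as pairs.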

Additional observations from a re-analysis of the deposited data

Results flagged for a closer look

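Each result here was singled out because the difference between an isomiR and miR-125b itself differed between hypoxia and normoxia by edgeR's interaction test. No explanation was tested for any of them.

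For Trim AG the interaction was called in 20 of 138 lincRNA genes (14.5% of members, 11.3% of all genes). That of AABR07030366.1 was -1.03 (log2, adjusted p = 0.00164): the gene averaged 5.86 CPM with Trim AG and 11.2 CPM with miR-125b in hypoxia, and 8.26 and 7.49 CPM in normoxia. For AABR07054460.4 it was 0.95 (adjusted p = 0.00195), with 14.3 and 9.07 CPM in hypoxia and 6.17 and 7.30 CPM in normoxia. For LOC102549726 it was 0.60 (adjusted p = 0.00218), with 252 and 200 CPM in hypoxia and 55.2 and 63.9 CPM in normoxia, and the call was kept in 8 of 12 fits that each leave out 1 library. On average AABR07054460.4 and LOC102549726 differed in opposite directions at the 2 oxygen levels. For AABR07030366.1 the log2 difference in normoxia was 0.10 (2 SE on either side: -0.14 to 0.34), so no difference was shown there.

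For Trim AGU the interaction was called in 2 lincRNA genes (1.45% of members, 0.966% of all genes), and neither call was stable. That of Rn60_X_0713.4 was 2.31 (adjusted p = 0.0314) and was called in 4 of 12 fits that each leave out 1 library: the gene averaged 1.198 CPM with Trim AGU and 1.46 CPM with miR-125b in hypoxia, and 0.238 and 1.31 CPM in normoxia. That of AABR07021998.1 was 2.08 (adjusted p = 0.0415), called in 2 of 12 such fits, with 3.08 and 1.46 CPM in hypoxia and 0.306 and 0.566 CPM in normoxia.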

How the results depend on the processing

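Of 270 alternative counts of called members, 221 stayed within 1.5 times the reported count, and of 742 alternative values of named members 709 kept direction and call, 33 belonged to fits that lost the call at least once and 0 changed direction. The cause of the changes below was not tested.

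Leaving out 1 library at a time gave 14 to 42 called members for Hypoxia Trim AGU against MC, 19 to 51 for Hypoxia against Normoxia Trim AGU, and in hypoxia, against miR-125b, Plus A 1 to 5, Trim A 0 to 9, Trim AG 19 to 34 and Trim AGU 1 to 13, with 0 to 1 for Trim A in normoxia. The 9 for Trim A came without its first hypoxia library. For the interactions with oxygen it gave 0 to 15 for Trim A (15 without the same library), 12 to 26 for Trim AG and 0 to 13 for Trim AGU (13 without its first hypoxia library). Without both first normoxia libraries, Plus A against miR-125b in normoxia gave 3.

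DESeq2 called 2 members for Trim A and 8 for Trim AGU against miR-125b in hypoxia, 2 for Trim A in normoxia, and 1, 5 and 9 in the interactions of Plus A, Trim A and Trim AGU. A fit of all libraries gave 73 for Hypoxia against Normoxia Trim AGU, in hypoxia 1 for Plus A and 18 for Trim AGU when set against miR-125b, and 12 for the Trim AGU interaction, which without the filter on low counts gave 1. The replicate numbers did not pair the libraries. With the replicate number as a block, 22 members were called for Hypoxia against Normoxia Trim AGU, 0 for Trim A against miR-125b in hypoxia and 0 for the Trim AGU interaction, and no other count moved by over 1.5 times.

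With 3 libraries a group and most members under a few CPM, small changes of low genes were not detectable at this depth.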
